A study of Rattus norvegicus with 4 samples.

Results

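The axon guidance ligands and receptors described here are 66 genes of the 14676 gene symbols in the deposited m6A tables. They were chosen by symbol alone, as semaphorins, plexins, neuropilins, ephrins, Eph receptors, Slits, Robos, netrins, Unc5 receptors and Dcc. They comprised 19 semaphorins, 9 plexins, 2 neuropilins, 7 ephrins, 14 Eph receptors, 3 Slits, 3 Robos, 3 netrins, and 5 genes counted as Unc5 and Dcc. The symbol pattern also caught Unc50, which is no netrin receptor and belongs to none of these families. Of the 72 rat symbols in RefSeq that fit the pattern, 66 were in the tables. The KEGG term for axon guidance was attached by the authors to 58 of the genes in the 5-week list and to 59 in the 3-week list.

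Adenosines inside mRNA can carry a methyl group at the N6 position (m6A). MeRIP-seq pulls RNA fragments down with an antibody against m6A (IP) and sets them against the input RNA from the same extract. The 5-week group (labelled ARC_352) and the 3-week group (labelled ARC_212) were both taken from the arcuate nucleus (ARC) of the hypothalamus of female Sprague-Dawley rats. The labels give these codes, name no treatment, and the ages of 5 and 3 weeks come from the study's methods, which describe 1 pool of 3 rats per age. Each age has 1 IP library and 1 input library, 4 in all, so that no difference below has a replicate check and none was tested. The comparison asks how m6A in the ARC differs between rats near the onset of puberty and juvenile rats.

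Axon guidance proteins attract or repel growing axons and migrating neurons. Semaphorins act on plexins, often with a neuropilin as co-receptor, ephrins act on Eph receptors, Slits on Robos, and netrins on Dcc and the Unc5 receptors. In mice, Sema3a and the neuropilins steer the migration of gonadotropin-releasing hormone neurons into the forebrain, and in the adult brain many of these proteins act at synapses and in blood vessels.

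Most of these genes had a listed peak at both ages, as did most gene symbols in the tables (12734 of 14676). The 66 genes were picked from symbols already in the m6A tables, so having a listed peak was close to fixed by that choice. Symbols among the 72 that were in no table are left out of these counts. Of the 66, peaks were listed for 62 genes at 5 weeks and for 64 at 3 weeks, with 61 genes at both. There were 204 peaks at 5 weeks and 166 at 3 weeks. The values are log2 enrichments of IP over input, as the authors' peak caller gave them. The median log2 enrichment of the peaks was 2.69 at 5 weeks, against 3.30 at 3 weeks, or 6.45-fold and 9.84-fold over input. Over the peaks of all genes the medians were 2.81 (5 weeks) and 3.17 (3 weeks). The number of peaks was thus higher at 5 weeks and their enrichment lower, and both also held for the whole lists, which had 33056 peaks at 5 weeks and 29653 at 3 weeks.

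These genes carried more peaks each than genes in general. They averaged 3.29 peaks per gene at 5 weeks and 2.59 at 3 weeks, against 2.36 and 2.20 over all genes with a peak. A single peak was found in 16.1% of them at 5 weeks and 31.3% at 3 weeks, against 36.4% and 40.5% of all genes. They are also long genes, with a median span of 110270 bases among those with a peak at 5 weeks, against 23890 bases over all genes. The part of gene length in the number of peaks was not tested.

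Few genes were marked at 1 age, as was also the case over all genes, of which 12734 had a peak at both ages, 1233 at 5 weeks only and 696 at 3 weeks only. Plxnb3, a B-type plexin, had a single peak of 2.05 (log2 enrichment) at 5 weeks and none at 3 weeks. Efna2, an ephrin held to the membrane by a lipid anchor, had 1 peak of 3.39 at 3 weeks and none at 5 weeks. Epha1, an Eph receptor of epithelia, and Unc50 each had 1 peak at 3 weeks only, of 2.19 and 2.05. Epha2 was in neither list but had 1 region in the comparison table described below. All these single peaks lay at or near the weaker end of the lists, apart from that of Efna2.

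To follow single sites, each 5-week peak was paired with the 3-week peak of the same gene and strand that it overlapped most, where each was the best partner of the other. This gave 137 pairs. Enrichment was lower at 5 weeks in 99 pairs and higher in 38, with a median difference (5 weeks minus 3 weeks) of -0.40 on the log2 scale. Over the 22366 pairs of all genes the median was -0.31, so a general shift toward lower enrichment at 5 weeks lay under every difference given here. A difference of at least 2-fold was reached by 28 pairs that were lower at 5 weeks, 20.4% of the pairs, where the background over all genes was 15.6%. In the other direction 4 pairs, 2.92%, were at least 2-fold higher at 5 weeks, with a background of 4.85%. After centring on the shift of all pairs, 11 pairs were lower (background 8.77%) and 9 were higher (background 8.03%), so that lower and higher pairs were close in number.

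For each gene, the pair with the highest mean enrichment over the ages, here its leading pair, was taken as its level. It could be given for 60 genes. Efna2, Epha1, Epha2, Plxna3, Plxnb3 and Unc50 had no paired peak. The leading pair was lower at 5 weeks in 49 genes and higher in 11, with a median difference of -0.73, where the median over all 12516 genes with a pair was -0.43. At least 2-fold lower were 18 genes (background 20.3%) and at least 2-fold higher were 2 (background 5.62%). Centred on the shift of all genes, 5 were lower (background 9.8%) and 2 were higher (background 10.3%), with a median of -0.30. The 18 genes are 30.0% of the 60, above the background, while after centring the shares in both directions were below it. With the mean over the pairs of each gene in place of the leading pair, 12 of the 60 were at least 2-fold lower.

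**Figure D1:**
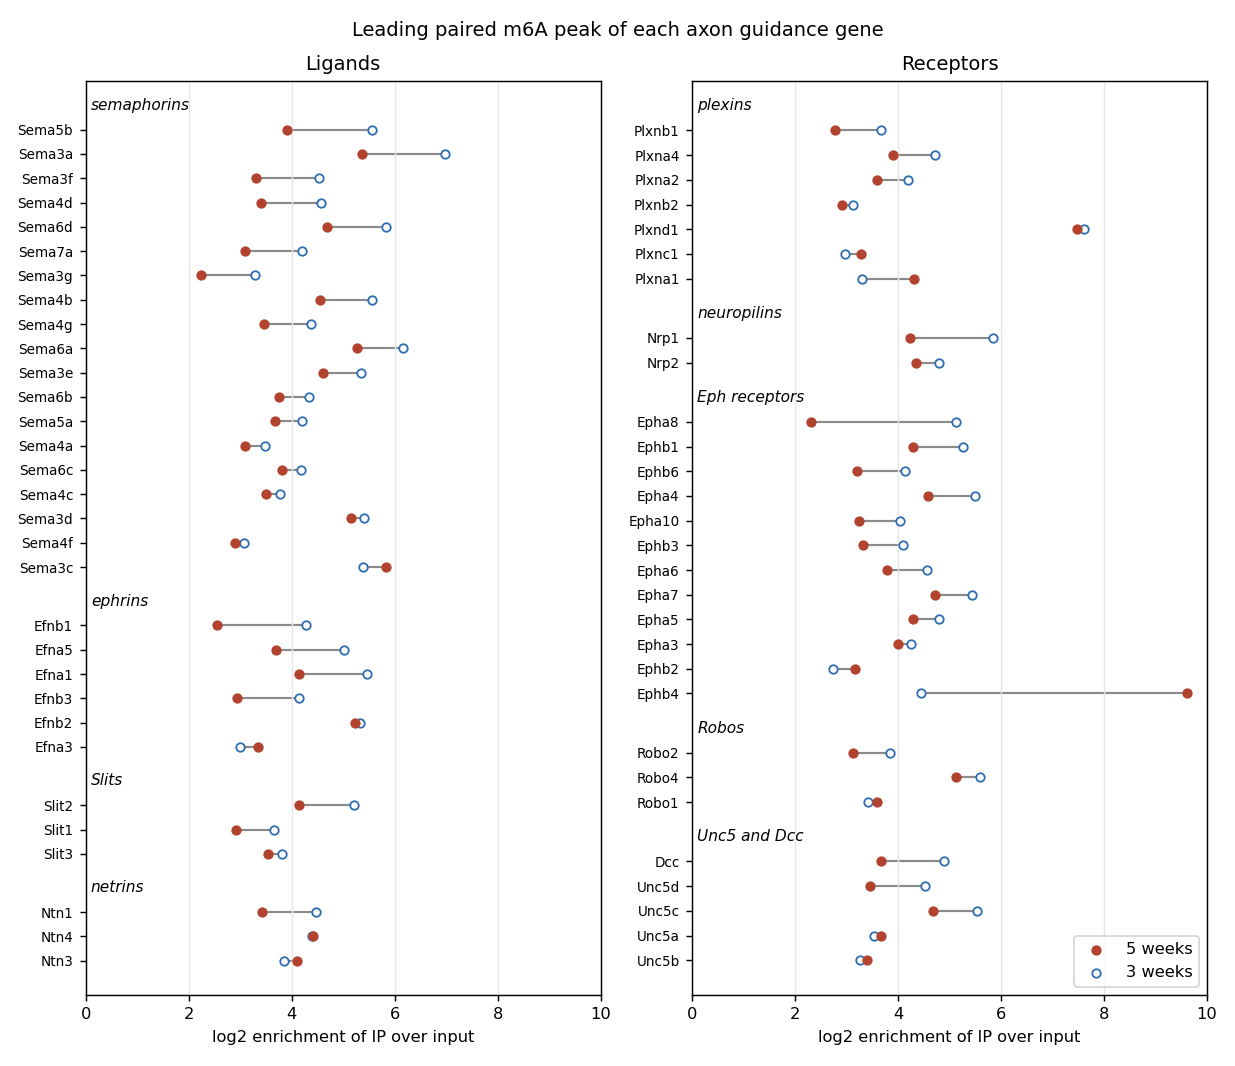
Log2 enrichment of IP over input (x axis) in the leading paired m6A peak of each of the 60 genes, by family, at 5 weeks (filled red) and 3 weeks (open blue). Ligands are on the left and receptors on the right, each family ordered by the difference between the ages. In 49 genes the 5-week point lies left of the 3-week point, and the longest lines are those of Ephb4 (higher at 5 weeks) and Epha8 (lower at 5 weeks).

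Among the leading pairs, more ligands than receptors were at least 2-fold lower before centring, and the numbers were close after it. Of 31 ligand genes with a leading pair, 14 were at least 2-fold lower at 5 weeks and 0 higher, with a median difference of -0.88. Of 29 receptor genes, 4 were lower and 2 higher, with a median of -0.71. Over all genes 20.3% were lower. After centring, 3 ligands and 2 receptors were lower (background 9.8%), and 0 ligands and 2 receptors were higher (background 10.3%). The centred medians were -0.44 for ligands and -0.27 for receptors. The difference between ligands and receptors was not tested.

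The semaphorins, secreted or membrane-bound ligands that mostly repel axons, had a median difference of -0.88 (-0.44 after centring). Of the 19, 8 were at least 2-fold lower at 5 weeks in their leading pair (background 20.3%), and 2 after centring (background 9.8%). The lowest difference was that of Sema5b, a transmembrane semaphorin with thrombospondin repeats, whose stop codon peak had 3.92 at 5 weeks and 5.56 at 3 weeks, a difference of -1.65. Sema3f, the secreted ligand of Nrp2, had 3.30 at 5 weeks and 4.53 at 3 weeks at the same site. Sema6d, a transmembrane ligand of Plxna1, had 4.68 at 5 weeks and 5.83 at 3 weeks at its stop codon. The stop codon peak of Sema4d, the ligand of Plxnb1, had 3.39 at 5 weeks and 4.57 at 3 weeks, while 2 peaks in its 3' UTR were slightly higher at 5 weeks.

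Of the other semaphorins past 2-fold, Sema7a, Sema3g and Sema4b lay just beyond it, and Sema3a, described next, lay farther out. Sema7a, which is anchored in the membrane by a lipid and binds integrins and Plxnc1, had 3.10 at 5 weeks and 4.20 at 3 weeks in its 3' UTR. Sema3g, a secreted semaphorin of vessels, had 2.23 at 5 weeks and 3.29 at 3 weeks. Sema4b, a transmembrane semaphorin, had 4.55 at 5 weeks and 5.56 at 3 weeks, and its difference of -1.01 was the one nearest to the 2-fold line among lower pairs. On the near side of the line stood Ephb1 with -0.99 and Plxna1 with -0.94, both at the stop codon.

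Sema3a, the secreted repellent that acts through Nrp1 and A-type plexins, had the highest enrichment of all these genes at 3 weeks. At 5 weeks its stop codon peak spanned 15017 bases, introns included, on chromosome 4 (21290131 to 21305147, minus strand, in the coordinates of the files, whose rat build is not named) and had a log2 enrichment of 5.36. It was paired with a 3-week peak in the 3' UTR with 6.98, a difference of -1.62. At 3 weeks a second, short peak of 501 bases at the stop codon reached 10.89 and had no partner of its own, since the single wide 5-week peak covered both. The wide peak at 5 weeks lay below both 3-week peaks, and how far below depends on which of them it is set against.

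Sema3c and Sema3e had peaks that differed in opposite directions within a gene. Sema3c, a secreted semaphorin that binds both neuropilins, had 5.84 at 5 weeks and 5.39 at 3 weeks in its 3' UTR, the only leading pair of a semaphorin that was higher at 5 weeks (0.45). At its stop codon it had 4.85 at 5 weeks and 6.15 at 3 weeks, a difference of -1.29. Sema3e, which binds Plxnd1 without a neuropilin, had 4.61 at 5 weeks and 5.34 at 3 weeks at its stop codon. At its start codon it had 5.06 at 5 weeks and 1.73 at 3 weeks, a difference of 3.33. This start codon pair joined a peak of 101 bases at 5 weeks to one listed over 148625 bases at 3 weeks, so the 2 values do not cover the same stretch.

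Sema4f, a transmembrane semaphorin of neurons, had the second highest leading difference of the family, -0.18. Another of its 3' UTR peaks had 1.70 at 5 weeks and 2.78 at 3 weeks, a difference of -1.08. Centring turned the leading differences of Sema3d, Sema4a, Sema4c, Sema4f and Sema6c to values above 0.

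Plexins, the receptors of semaphorins, differed less. Their median difference was -0.21, and it became 0.23 after centring, so its direction turned with centring. Plxnb1, the receptor of Sema4d, had the lowest value, with 2.78 at 5 weeks and 3.66 at 3 weeks. Plxna4 had 3.90 at 5 weeks and 4.71 at 3 weeks at its stop codon, and an exon peak with 3.27 at 5 weeks and 4.33 at 3 weeks (-1.06). Plxnc1, the receptor of Sema7a, had 3.28 at 5 weeks and 2.98 at 3 weeks in its leading exon peak. A short exon peak of Plxnc1 with 5.60 at 3 weeks had no partner at 5 weeks.

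Plxna1, which serves class 3 and class 6 semaphorins, held both directions in 1 transcript. Its 3' UTR peak had 4.30 at 5 weeks and 3.30 at 3 weeks, a difference of 1.001, just past the 2-fold line. Its stop codon peak had 2.44 at 5 weeks and 3.37 at 3 weeks. Near the start of the coding sequence it had 2.69 at 5 weeks and 4.23 at 3 weeks, a difference of -1.54, but that 5-week exon peak lay beside another 5-week peak at the start codon, with 3.22, that had no partner of its own. The mean over its 5 pairs was -0.26.

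Plxnd1, the receptor of Sema3e and best known from blood vessels, had the most strongly enriched peak of the plexins at either age. This peak at the start of its transcript had 7.46 at 5 weeks and 7.61 at 3 weeks, a difference of -0.15 that was above 0 after centring (0.29). Its adjusted p values, 1.87e-04 at 5 weeks and 1.19e-04 at 3 weeks, were large for so high an enrichment.

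Both neuropilins, the co-receptors of class 3 semaphorins, were lower at 5 weeks. Nrp1, which binds Sema3a, had 4.22 at 5 weeks and 5.84 at 3 weeks at its stop codon (chromosome 19, 56507137 to 56513093 at 5 weeks), a difference of -1.62. An exon peak of Nrp1 had 2.57 at 5 weeks and 1.72 at 3 weeks, 0.85 in the other direction. Nrp2, which binds Sema3f, had 4.34 at 5 weeks and 4.79 at 3 weeks at its start codon, and 3.38 at 5 weeks and 4.53 at 3 weeks at its stop codon (-1.15). All 4 pairs of Nrp2 were below 0.

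The ephrins, membrane-bound ligands of Eph receptors, had the lowest median difference of any family, -1.26 (-0.82 after centring), and 4 of 6 with a pair were at least 2-fold lower at 5 weeks (background 20.3%). After centring 1 of the 6, Efnb1, was lower (background 9.8%). Efnb1, a transmembrane ephrin, had 2.56 at 5 weeks and 4.27 at 3 weeks at its stop codon, a difference of -1.72. Its strongest peak of all lay in the 5' UTR at 3 weeks, with 7.54, and had no partner at 5 weeks. Efna5, a lipid-anchored ephrin of brain maps, had 3.70 at 5 weeks and 5.02 at 3 weeks in a pair that joined a start codon peak of 501 bases at 5 weeks to a 5' UTR peak listed over 76029 bases at 3 weeks. All 4 of its pairs were below 0, with -1.36 in a second pair in the 5' UTR. Efna1 had 4.15 at 5 weeks and 5.46 at 3 weeks at its stop codon. Efnb3, a transmembrane ephrin of the midline, had 2.94 at 5 weeks and 4.15 at 3 weeks in its 3' UTR.

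The remaining ephrins showed little difference. Efnb2, the partner of Ephb4 in vessels, was the most strongly enriched ephrin at 5 weeks. Its peak, labelled stop codon, had 5.23 at 5 weeks and 5.34 at 3 weeks. It was listed over 40968 bases at both ages, in a gene of 40975 bases. Its difference of -0.10 became 0.33 after centring. Efna3 had 3.35 at 5 weeks and 3.00 at 3 weeks in its 3' UTR and was the only ephrin higher at 5 weeks.

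The Eph receptors, receptor tyrosine kinases that bind ephrins, ranged more widely than any other family, between -2.80 and 5.17, with a median of -0.78 (-0.34 after centring). Epha8 had the lowest difference of the 60 genes. Its 3' UTR peak (chromosome 5, 149166696 to 149166921 at 5 weeks) had 2.31 at 5 weeks and 5.11 at 3 weeks. Ephb1 was next, with 4.28 at 5 weeks and 5.27 at 3 weeks at its stop codon. Ephb3 had an exon peak with 2.98 at 5 weeks and 4.03 at 3 weeks (-1.06), and Epha6 a 5' UTR peak with 2.96 at 5 weeks and 4.01 at 3 weeks (-1.05).

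Ephb4, the receptor of Efnb2 on venous endothelium, had the highest difference of all, 5.17. Its only 5-week peak, annotated to the 3' UTR (chromosome 12, 19326801 to 19327301), had a log2 enrichment of 9.61, or 783-fold over input. Its only 3-week peak started at the same base, ran over the stop codon and had 4.44, or 21.7-fold. The adjusted p was larger at 5 weeks, 1.99e-06, than at 3 weeks, 2.30e-13, although the enrichment was higher. Input levels are not in the files, and their part in this value was not tested. Ephb4 had no region in the comparison table.

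Ephb2, a receptor of B-type ephrins at synapses, was the only other Eph receptor higher at 5 weeks in its leading pair, with 3.16 at 5 weeks and 2.73 at 3 weeks, and all 3 of its pairs were above 0. Epha3 had an exon peak with 3.71 at 5 weeks and 2.58 at 3 weeks, a difference of 1.12, while its leading exon peak had 4.00 at 5 weeks and 4.25 at 3 weeks. Ephb6, an Eph receptor without kinase activity, held both directions, with 3.21 at 5 weeks and 4.13 at 3 weeks at its stop codon and 4.00 at 5 weeks and 3.15 at 3 weeks in an exon.

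Of the Slits, secreted repellents, Slit2 was at least 2-fold lower at 5 weeks. It had 4.14 at 5 weeks and 5.22 at 3 weeks at its stop codon. Slit1 had 2.92 at 5 weeks and 3.65 at 3 weeks in an exon, and Slit3 had 3.54 at 5 weeks and 3.81 at 3 weeks at its stop codon, a difference of -0.27 that was above 0 after centring. Their Robo receptors differed less, with a median of -0.48 (-0.04 after centring). Robo2 had 3.13 at 5 weeks and 3.84 at 3 weeks at its stop codon. Robo1 had 3.59 at 5 weeks and 3.42 at 3 weeks there. Robo4, the Robo of endothelium, was the most strongly enriched of the 3, with 5.12 at 5 weeks and 5.59 at 3 weeks.

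Among the netrins, which attract or repel axons depending on the receptor, Ntn1 differed from the others. It had 3.42 at 5 weeks and 4.47 at 3 weeks in a peak labelled stop codon. That peak was listed over 180179 bases at 5 weeks, in a gene of 185393 bases. An exon pair of Ntn1 had 2.31 at 5 weeks and 3.69 at 3 weeks. Both of its pairs were thus at least 2-fold lower at 5 weeks. Ntn3 had 4.11 at 5 weeks and 3.85 at 3 weeks, and all 3 of its pairs were above 0. Ntn4, a netrin of basement membranes, had 4.41 at 5 weeks and 4.39 at 3 weeks.

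Among the receptors of netrins, the leading pair was lower at 5 weeks where it lay at the stop codon. Dcc, the receptor through which Ntn1 attracts axons, had 3.67 at 5 weeks and 4.89 at 3 weeks at its stop codon (-1.22) and, in a second pair, 3.19 at 5 weeks and 4.68 at 3 weeks (-1.49). The second pair joined a start codon peak of 726 bases at 5 weeks to an exon peak listed over 399037 bases at 3 weeks. Unc5d, one of the Unc5 receptors that convert netrin attraction to repulsion, had 3.45 at 5 weeks and 4.52 at 3 weeks at its stop codon. Unc5c, with the highest enrichment of these 5, had 4.67 at 5 weeks and 5.53 at 3 weeks at its stop codon. The 2 other pairs of Unc5c were higher at 5 weeks, by 0.21 and 0.43, and the mean over its pairs was -0.07. Unc5a and Unc5b, whose leading pairs lay in an exon and in the 3' UTR, were slightly higher at 5 weeks, by 0.13 and 0.14.

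Where a peak lay in the transcript went with how it differed. Of the pairs annotated to the same region at both ages, those at the stop codon were mostly lower at 5 weeks, 36 of 40, with a median difference of -0.79. Of these, 13 were at least 2-fold lower and 0 at least 2-fold higher. Some of these peaks were wide, such as 40968 bases in Efnb2 and 180179 bases at 5 weeks in Ntn1. For such peaks the label does not place the signal within the gene. Pairs in coding exons were near balance, 14 below 0 and 18 above, with a median of 0.03. In the 3' UTR 24 were below 0 and 11 above, with a median of -0.14. At the start codon 9 of 10 were below 0 (median -0.49), and in the 5' UTR all 4 (median -0.79).

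The same order of regions was seen over all genes, with a smaller gap. Over all genes the median difference was -0.54 at the stop codon, -0.17 in exons and -0.24 in the 3' UTR. At the stop codon 32.5% of the pairs of these genes were at least 2-fold lower at 5 weeks, against 19.5% over all genes. In exons 43.8% of their pairs were below 0, against 62.0% over all genes. These shares were not tested, since pairs of 1 library per age are not replicates.

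**Figure D2:**
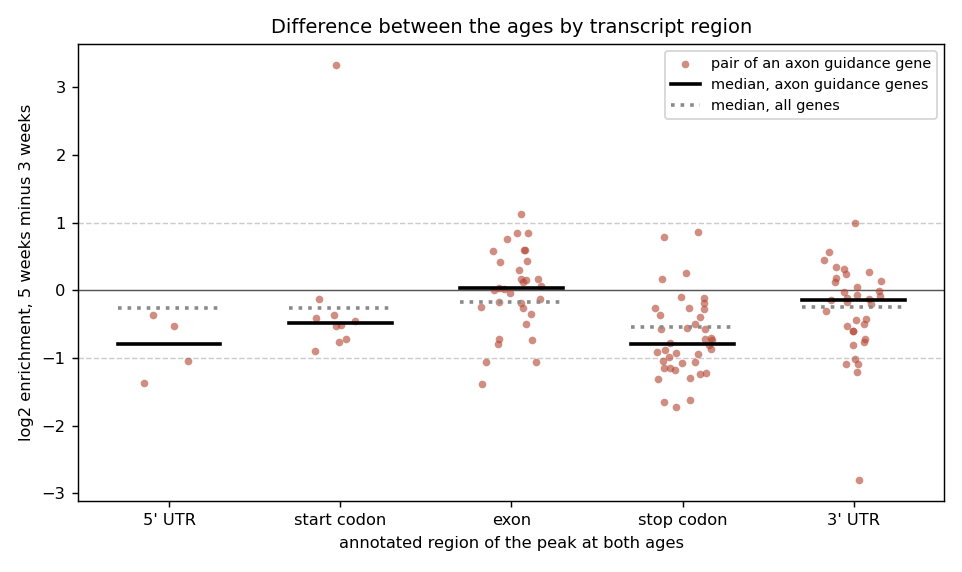
Difference in log2 enrichment, 5 weeks minus 3 weeks (y axis), of each axon guidance pair annotated to the same region at both ages (x axis, 5' to 3' along the transcript). Solid bars are medians of these genes, dotted bars medians of all genes, and dashed lines mark 2-fold. Stop codon pairs lie mostly below 0, with a median of -0.79, and exon pairs on both sides, with a median of 0.03.

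Within genes the picture was mixed. In 15 genes with both a stop codon pair and a 3' UTR pair, the stop codon had the lower difference in 13, with a median gap of -0.52 (stop codon minus 3' UTR). Over all genes with both, this was so in 67.8%, with a median gap of -0.33. In 13 genes with both a stop codon and an exon pair it had the lower difference in 6, where 69.0% of all genes with both did. Among them, Nrp1 had -1.62 at the stop codon and a mean of 0.41 over its exon pairs, and Slit2 had -1.08 and 0.17. Efna5, with -0.12 and -0.50, and Plxnb2, with 0.79 and -0.01, had the opposite order.

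The strongest peak of a gene lay at the stop codon in 26 of the 62 genes at 5 weeks and in 34 of the 64 at 3 weeks. This count was not made over all genes. As a share of all peaks of the axon guidance genes, stop codon peaks were 21.6% at 5 weeks (95% Wilson interval 16.5 to 27.7). At 3 weeks they were 28.9% (22.6 to 36.2). Exon peaks were 33.8% at 5 weeks (27.7 to 40.6) and 28.9% at 3 weeks (22.6 to 36.2). Peaks in the 3' UTR were 29.4% at 5 weeks (23.6 to 36.0) and 25.9% at 3 weeks (19.8 to 33.1). Over all genes the shares at 5 weeks were 22.9% (stop codon), 29.7% (exon) and 27.3% (3' UTR). At 3 weeks they were 24.6%, 27.8% and 26.2%. Each lies inside the interval given above for that region and age. These intervals cover counting error over peaks only, not the spread between pools, and the shares of the 2 ages were not tested against each other.

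Many of the peaks without a partner were weak. Such a peak can still overlap a peak of the other age that was paired elsewhere, as in Sema3a. At 5 weeks 67 peaks (32.8%) had no partner, and at 3 weeks 29 (17.5%). The unpaired peaks were enriched by a median of 2.24 at 5 weeks and 2.35 at 3 weeks on the log2 scale, while paired ones had 3.13 and 3.50. Over all genes 32.3% of peaks at 5 weeks and 24.6% at 3 weeks had no partner.

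Robo2, Robo1, Plxna1, Slit2, Epha6 and Plxna4 had the most peaks, 15, 14, 14, 13, 11 and 11 over both lists. Robo2 had 9 at 5 weeks and 6 at 3 weeks, and 5 of the 9 had no partner at 3 weeks. Its 4 pairs were all lower at 5 weeks, with none past 2-fold. In Robo1, with 7 peaks at each age, 3 pairs were higher at 5 weeks and 2 lower, and an exon peak with 3.67 at 5 weeks and 3.07 at 3 weeks was the strongest at 5 weeks. All 4 pairs of Plxna4 and 4 of 5 pairs of Epha6 were below 0. Of the 39 genes with 2 or more pairs, 18 had all pairs below 0, 18 had pairs on both sides and 3 had all above. This count was not made over all genes, where 69.0% of single pairs were below 0.

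**Figure D3:**
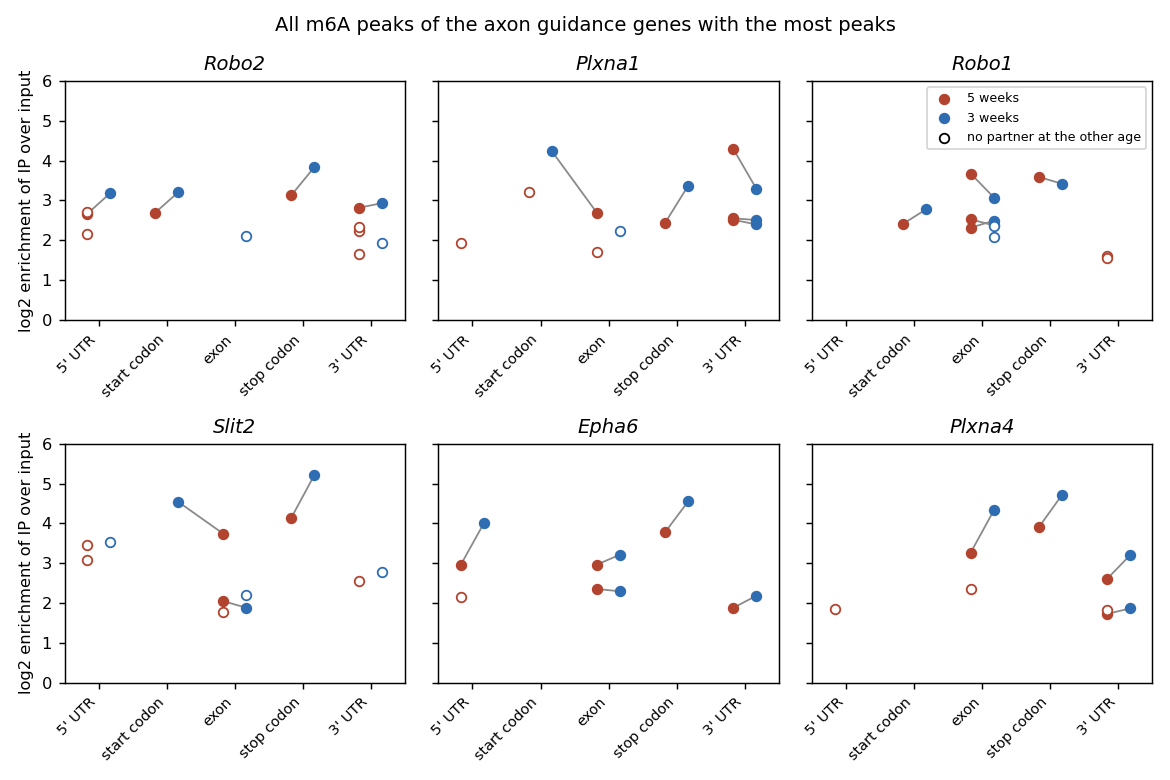
All m6A peaks of the 6 axon guidance genes with the most peaks, by annotated region (x axis, 5' to 3') and log2 enrichment of IP over input (y axis), with 5 weeks in red to the left of 3 weeks in blue. Lines join paired peaks and open circles have no partner. Robo2 and Plxna4 have pairs that are all lower at 5 weeks, while Plxna1 and Robo1 have pairs in both directions.

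The authors also deposited a table of regions that differed between the ages, which lists the enrichment at each age. It holds only regions that passed the authors' own p threshold for a difference, so its members differ by construction. It had 95 regions in 51 of the 66 genes. Of these regions 53 were at least 2-fold lower at 5 weeks (background 46.9% of all its regions) and 13 at least 2-fold higher (background 10.6%), in 42 and 11 genes. The median difference was -1.06, and -0.95 over all regions of the table. After centring, 9 were lower (background 13.3%) and 19 higher (background 18%).

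The regions higher at 5 weeks included sites with no peak at 3 weeks. Plxnd1 had an exon region with 4.35 at 5 weeks and -0.57 at 3 weeks, that is, IP below input at 3 weeks. Epha2, the receptor missing from both lists, had a 3' UTR region with 4.49 at 5 weeks and 1.02 at 3 weeks. Epha3 had a stop codon region with 5.38 at 5 weeks and 1.86 at 3 weeks, where neither list held a peak. Dcc had an exon region with 2.61 at 5 weeks and 0.08 at 3 weeks, inside the stretch of its wide 5-week stop codon peak. Far from it, its start codon region had 3.01 at 5 weeks and 4.71 at 3 weeks. The exon region next to that start codon region had 1.25 at 5 weeks and 3.67 at 3 weeks. The lowest was a 3' UTR region of Sema3a, with 2.86 at 5 weeks and 7.61 at 3 weeks. In the separate lists this region matched a 5-week peak with 2.56 and no 3-week peak, despite the value of 7.61.

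For 75 of the 95 regions both lists also held a peak, and all 75 had the same sign in the table and in the lists. The size was not the same. The difference was more negative in the table for 64 of the 75, with a median gap of -0.24 (table minus lists) over the 75. Much the same held over all genes. Of their 10141 such regions, 9785 had the same sign and 8578 were more negative in the table, with a median gap of -0.20. Of these 75 regions, 24 were at least 2-fold lower in both, 20 in the table only and 2 in the lists only. Over all genes these counts were 2603, 2069 and 160. The widest gap was in Ntn1, with a difference of -2.50 in the table and -1.05 in the lists, and Slit3 had -1.66 and -0.27 at its stop codon. No source used here gives the scaling between libraries in either kind of table.

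**Figure D4:**
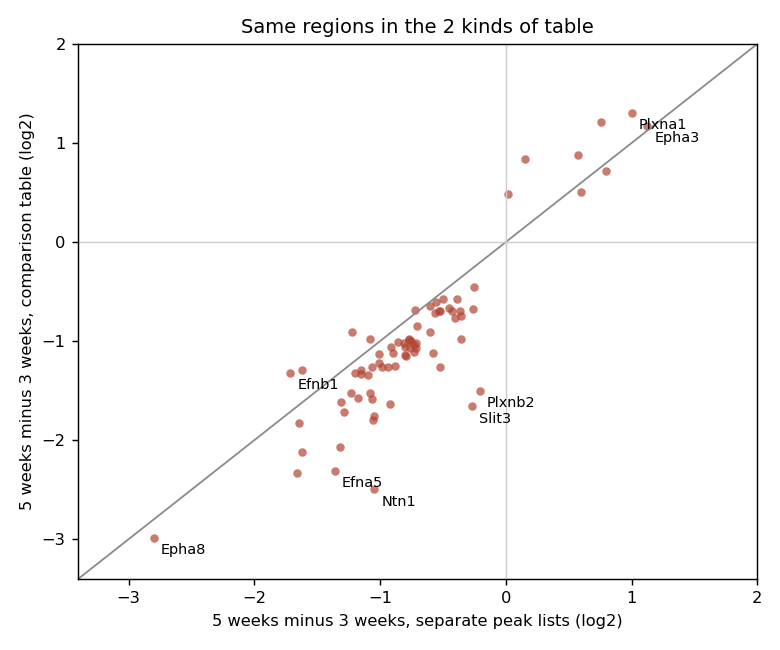
Difference in log2 enrichment, 5 weeks minus 3 weeks, of the 75 axon guidance regions that have a peak in both lists, from the separate peak lists (x axis) and from the comparison table (y axis), with the line of equal values. All points have the same sign on both axes and 64 lie below the line, with Ntn1, Slit3 and Plxnb2 farthest from it.

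Other genes of the axon guidance pathway, mostly transducers inside the growth cone, followed the general shift. Of 85 such genes, 77 were listed at 5 weeks and 76 at 3 weeks, and 75 had a leading pair. Their median difference was -0.49, and -0.055 after centring. At least 2-fold lower were 11 (14.7%), below the background of 20.3%, and at least 2-fold higher were 2 (background 5.62%). Trio, a signalling protein that acts downstream of Dcc, had 3.49 at 5 weeks and 6.96 at 3 weeks in its leading pair. Sdc2, a heparan sulphate proteoglycan, had 4.82 at 5 weeks and 6.62 at 3 weeks. Nck1, an adaptor protein, had 4.18 at 5 weeks and 5.92 at 3 weeks, and Farp2, an exchange factor bound by A-type plexins, had 2.23 at 5 weeks and 3.81 at 3 weeks. In the other direction, Dscam, an adhesion molecule that also binds netrin, had 7.96 at 5 weeks and 2.81 at 3 weeks, and Lrrc4c, the partner of netrin-G1, had 6.10 at 5 weeks and 3.61 at 3 weeks.

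The tissue label was checked against marker genes, with the limit that a peak needs both expression and methylation. Of 12 genes of arcuate neurons 9 were listed at 5 weeks and 5 at 3 weeks. Npy, Th and Cartpt had peaks at both ages, Pomc and Tac3 at 5 weeks only, and Agrp, Kiss1 and Ghrh at neither. All 10 oligodendrocyte genes and all 8 astrocyte genes had a peak at both ages, as did 6 of 7 microglial and 5 of 6 endothelial genes, while 3 of 4 ventromedial nucleus genes had one at 5 weeks and 2 at 3 weeks. Of 6 tanycyte and ependyma genes 4 were listed at 5 weeks and 2 at 3 weeks. At each age 1 of 8 pituitary and 2 of 5 choroid plexus genes were listed. Median differences were -0.57 for arcuate (5 genes compared), -0.34 for oligodendrocyte (10), -0.37 for astrocyte (7) and -0.28 for microglial genes (6). Endothelial genes had -0.999 (5 compared, 2 above 0), and all genes -0.43. With 2 genes compared in each, ventromedial genes had -1.25, tanycyte and ependyma genes -0.75 and choroid plexus genes -2.56. In such bulk tissue, a marker without a listed peak may be unmethylated or too little expressed, and these cannot be told apart. The part of cell makeup in the values above was not tested.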

How the data were processed

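ARC tissue was pooled from 3 female Sprague-Dawley rats per age, according to the study's methods, and 1 IP and 1 input library were made per age. The submitters' processing notes name fastp 0.19.4 and HISAT2 2.0.4, and a human genome build although gene IDs and chromosomes are those of rat. No source used here names the peak caller, its scaling or the annotation version. Deposited peak lists of each age, made by the authors, give log2 enrichment of IP over input, and p-values of each peak were made by the authors before deposit. The deposited comparison table gives log2 enrichment at both ages for regions under the authors' p threshold. Its columns of fold change, p and direction were not used. No table holds counts, so depth and the precision it gives are unknown.

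Members were matched by symbol pattern. The members, gene lists and rules were chosen with earlier results of these data known. Peaks were paired by mutual best overlap on the same strand (at least 1 base), and a difference of 2-fold was taken as the threshold. Differences are 5 weeks minus 3 weeks. With 1 library of each kind per age, no test was run. Genes named are, per family, the 2 highest and 2 lowest leading differences and the highest enrichment, all members with a pair past 2-fold, the 5 with the most peaks (6 with a tie), those with peaks at 1 age, and of other pathway genes at most 4 per direction. Further genes named were chosen after their values were seen. Alternatives changed the overlap, region match, fold, p threshold, centring and value per gene. The pairing was tested on a simulated 5-week list, made from the 3-week list by moving peak ends slightly. That list held no merged, split or missing peaks, so the test says nothing of pairs of very unlike width. No sequence is shown, since no genome of the files' build was used. Python 3.11.15, numpy 2.4.6, pandas 2.3.3, scipy 1.17.1 and matplotlib 3.10.9 were used.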

Additional observations from a re-analysis of the deposited data

How the results depend on the processing

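The medians over all paired peaks, all member genes, all table regions and the other pathway genes stayed below 0 under each alternative run, but their size followed the scaling. The plexin median turned, to 0.23 after centring against -0.21 before it, and the netrin median was above 0 in both. For paired peaks, the median of -0.40 became -0.39 where at least 0.5 of each peak had to overlap, -0.37 where the region had to match and -0.10 after centring on all pairs, with 11 lower and 9 higher. Centring within each region, chosen after the data were seen, gave 10 lower, 8 higher and a median of -0.10. At 1.5-fold, 54 were lower and 11 higher. For genes, the median of -0.73 became -0.45 for the mean over pairs, where 12 genes were at least 2-fold lower, against 18 by leading pair. It became -0.77 for the highest peak at each age, where 20 genes were lower and 1 was higher. After centring it was -0.30, with 5 lower. Plxna1 had -0.26 for the mean over its pairs, against 1.001 in its leading pair. For regions of the comparison table, values from the separate lists gave 26 lower, 2 higher and a median of -0.77, and centring gave 9 lower and a median of -0.10. For the other pathway genes, centring gave 5 lower (background 9.8%) and a median of -0.055. Counts of peaks stayed within 1.5 times under an adjusted p under 0.001 and under a log2 enrichment of at least 2, shares of regions stayed within their intervals under the p threshold, the only one run for them, and leaving out Unc50 (chosen after the data were seen) changed no gene-level value. No paired analysis was possible because each age has 1 pool. With 1 IP and 1 input library per age, the spread between animals is unknown, and no library could be left out. Input levels are not in the files, so a high enrichment over few input reads cannot be told from one over many.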
